A study of Mus musculus with 4 samples.

Results

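The cytosolic ribosomal protein genes of mouse bone marrow were followed across cell types and after treatment with PM (purinostat mesylate). They were taken by name alone, as every gene symbol of the Rpl and Rps series with a number and an optional paralog suffix, together with Rplp0, Rplp1, Rplp2 and Rpsa. This rule found 84 of the 32285 genes in the count tables. Mitochondrial ribosomal proteins (Mrpl and Mrps) do not match it, and neither do genes such as Fau and Rack1, which encode ribosomal proteins under other names and were kept as a list of their own. Pseudogenes and retrogenes with a suffix do not match either. Of these, Rps27rt had 48.7 CPM (the UMIs of a gene scaled to a common total of UMIs of the same cells) over all cells, Rpl10-ps3 27.0, Rpl9-ps6 24.8 and Rpl36a-ps1 16.5. Reads of such near-identical copies could have been split with Rps27, Rpl10, Rpl9 and Rpl36a, whose levels are therefore uncertain. By how much was not tested, and copies under other kinds of names were not looked for.

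Bone marrow was taken from 4 mice of the 5TMM myeloma model, and 1 droplet-based 3' RNA-sequencing library was made per mouse. All 4 mice were of the strain that the study names C57BL/KawRij, were 6 weeks old when 5TGM1-luc mouse myeloma cells were injected into a vein, and had carried these cells for 3 weeks. Then 2 mice received vehicle and 2 mice received PM at 10 mg/kg, and marrow was collected after 24 h. PM inhibits the class I and IIb histone deacetylases. Red cells had been lysed before the cells were loaded, which limits what the erythroid cells below stand for. The myeloma cells come from 1 cell line, and each mouse kept its own normal marrow. The 4 libraries held 69828595 to 109447030 UMIs (unique molecular identifiers, which count RNA molecules), and 7826 to 13387 cells per mouse were kept, with medians of 4717 to 6067 UMIs. Pairs of libraries shared 18 to 39 cell barcodes. Doublets were called in 1.52% to 5.51% of cells, most in PM mouse 1. The p-values below measure the spread between 2 and 2 mice, each with 1 library.

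A ribosome is built from ribosomal RNA and one copy of nearly every ribosomal protein, so the genes encoding these proteins are expressed together and strongly in growing cells. Their mRNAs begin with a run of pyrimidines, the TOP motif, through which translation is adjusted to nutrients by mTORC1 and LARP1. In bone marrow, progenitors and dividing precursors make many ribosomes, while neutrophils lose most of their ribosomes as they mature.

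Start regions of genes that changed with PM are shown because runs of pyrimidines are common near the annotated starts of these genes. The sequences are from RefSeq start sites on GRCm38, and 64 of the 84 members had one. A run of at least 8 bases that were all C or T, on the strand of the gene, lay within 50 bases of the start in 53 of the 64 members (82.8%) and in 39.3% of 27025 genes. Runs of A and G of the same length, which are such a run on the opposite strand, were found in 16 of the 64 members and 41.1% of all genes. Of 23 members that passed the test in some cell type below, 16 had a start sequence and 14 of these had such a run. A run is a match of letters in a window, not always at the first base of the mRNA, and no measure of translation. In the lines below, 26 bases are printed 5' to 3' and capitals mark the run. Counted from the annotated start, with negative positions before it, the run began at -8 in Rpl14, 14 in Rpl11, -2 in Rps18, -2 in Rps27, -22 in Rps25 and 24 in Rpl37a, so those of Rpl11 and Rpl37a lay inside the transcript and that of Rps25 ended before its start. The first 3 genes rose in early B cells and the last 3 fell in mature or Il1b-high neutrophils.
Rpl14, chr9:120571505-120571530, plus strand: cgggCCCTCTCTCTTCTCgctgagcg
Rpl11, chr4:136053359-136053384, minus strand: gaagTCTCCCTCTCTCTTCCTgttct
Rps18, chr17:33955646-33955671, minus strand: tccgCTCTCTCTTCCacaggaggcct
Rps27, chr3:90213629-90213654, minus strand: ttcgCTCCTTTCCggcggtgacgacc
Rps25, chr9:44407688-44407713, plus strand: cgggCTTCCTTTTTTTCCgacatctt
Rpl37a, chr1:72711279-72711304, plus strand: tgcgTCCCTTCCTCTTCggacttggg

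All but 1 of the 84 genes had counts. The exception was Rpl10l, a retrogene known for its expression in testis, with 0 counts in 39743 cells. Among the highest levels over all cells were those of Rps12 (2865 ± 344 CPM, SD, n = 4 mice), Rpl41 (2703 ± 257), Rps9 (2685 ± 209) and Rpl37a (2501 ± 224). The lowest detected genes were all paralogs: Rpl39l at 0.42 CPM, Rpl3l at 4.17, Rpl7l1 at 65.0, Rps27l at 262 and Rpl22l1 at 303. Since 1 UMI stands for 1 molecule read from its 3' end, these values were not divided by gene length.

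Most cells were sorted into 19 types and stages by clustering with the ribosomal protein genes left out, and named from marker genes. Clusters of 922, 844 and 237 cells got no name. A neutrophil cluster of 837 cells and B cell sub-clusters of 670, 214, 70, 27 and 15 cells got no stage, and these cells are in none of the 19. The share of a type's UMIs that came from the 84 genes is the ribosomal protein share. It was highest in the clonal plasma cells, in which 98.1% of the cells with a light-chain V gene carried Igkv10-96, at 21.6% ± 1.74 (SD, n = 4 mice). Erythroid cells and their progenitors followed at 19.5% ± 2.63, hematopoietic stem and progenitor cells (HSPC) at 18.4% ± 1.31, T and NK cells at 17.8% ± 1.84 and mature B cells at 17.1% ± 0.79. The low end of the order held the neutrophil stages and the stromal CAR cells (Cxcl12-abundant reticular cells). Cycling neutrophil precursors had 5.28% ± 0.45, CAR cells 5.01% ± 1.36, immature neutrophils 2.36% ± 0.26, Il1b-high neutrophils 1.61% ± 0.32, interferon-stimulated neutrophils 1.49% ± 0.20 and mature neutrophils 1.43% ± 0.22. These are descriptions, since the types were defined on the same cells. Most neighbours in the order overlapped in their ranges over the 4 mice. Among the 18 neighbouring pairs, only the CAR cells above immature neutrophils, and immature above Il1b-high neutrophils, did not overlap. Compared within each mouse, some overlapping pairs kept their order in all 4 mice, such as mature B cells above megakaryocytes and interferon-stimulated above mature neutrophils. Other pairs did so in only 2 or 3 mice. The order of interferon-stimulated and mature neutrophils also depended on the total. It was reversed in their means with immunoglobulin, hemoglobin, mitochondrial and neutrophil granule genes left out.

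**Figure D1:**
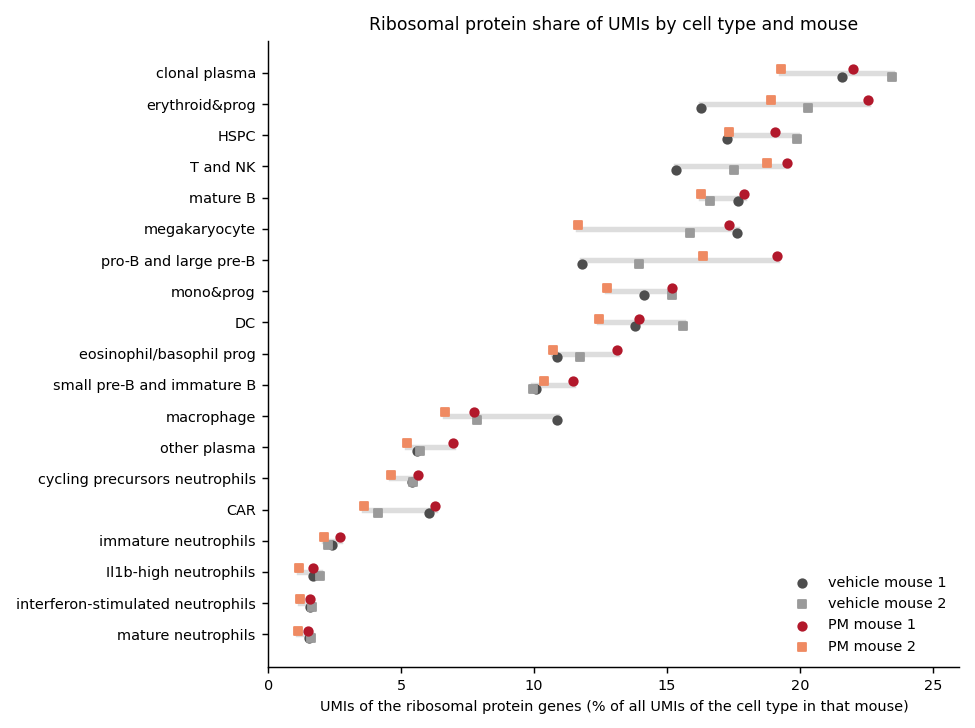
The ribosomal protein share of UMIs (percent, horizontal axis) is plotted for 19 cell types and stages (vertical axis, ordered by mean), with 1 point per mouse: dark grey circles and light grey squares are vehicle mice 1 and 2, dark red circles and orange squares are PM mice 1 and 2. The share runs from about 1.4% in mature neutrophils to 21.6% in clonal plasma cells, and the PM points lie above both vehicle points in pro-B and large pre-B cells and in T and NK cells.

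From cycling precursors to mature neutrophils both the share and the amount per cell were lower at each stage. In Il1b-high neutrophils the share was higher than in mature ones (1.61% against 1.43%), an order that depended on the genes counted in the total. A cycling precursor held 630 to 911 ribosomal protein UMIs in the 4 mice, an immature neutrophil 127 to 185, a mature neutrophil 45.0 to 72.7 and an Il1b-high neutrophil 30.1 to 55.0. Within the B lineage the order was different. The share was 15.3% ± 3.17 in pro-B and large pre-B cells, 10.5% ± 0.69 in small pre-B and immature B cells and 17.1% ± 0.79 in mature B cells, so that the small, resting precursors lay lowest in each of the 4 mice. HSPC of the Cd34- and Muc13-led cluster had 20.5% ± 1.32 and those of the Elane- and Mpo-led cluster 17.7% ± 1.31. In erythroid cells the Car1-led progenitor cluster had 20.3% ± 2.54 and the hemoglobin-led cluster 2.58% ± 0.64. Plasma cells without a dominant V gene had 5.86% ± 0.75, and immunoglobulin genes took 50.5% to 61.7% of their UMIs; with immunoglobulin, hemoglobin, mitochondrial and neutrophil granule genes taken out of the total, their share was 15.3%. With the same genes out of the total, the mature neutrophils had 2.28% and the clonal plasma cells 24.5%. The means of the Il1b-high and interferon-stimulated neutrophils were then slightly below that of the mature ones.

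Genes of the same machinery were among those whose levels followed the summed share over the 19 types most closely. Among the 3411 genes that averaged 50 CPM or more, the genes outside the rule with the highest Pearson correlations of log2(CPM + 1) included Rack1 (r = 0.993), a protein of the small subunit, the elongation factors Eef1a1 (0.989), Eef2 (0.987), Eef1b2 (0.986) and Eef1d (0.981), the initiation factor subunit Eif3i (0.987) and the helicase Ddx18 (0.985). The median correlation was 0.989 for the 81 members at that level and 0.37 for the genes outside the rule. The members are themselves part of the summed share, which raises their values. The points are type means over the same 4 libraries, and 454 genes outside the rule were above 0.9. The member least like the others was Rps9, at 0.69.

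Members did not keep fixed proportions to each other. Each gene's part of all ribosomal protein UMIs was taken per type for the 80 members with at least 100 CPM. The ratio of the highest to the lowest type had a median of 2.21, was above 2 for 49 members and was never below 1.31. Rps9, a protein of the small subunit, had the widest range. It gave 1.52% ± 0.12 of ribosomal protein UMIs in clonal plasma cells, 3.20% ± 0.22 in cycling neutrophil precursors, 7.06% ± 0.47 in immature, 11.8% ± 0.82 in mature and 14.8% ± 1.10 in Il1b-high neutrophils (SD, n = 4 mice), a 9.68-fold range. The values in Il1b-high neutrophils were 15.4% and 13.4% in vehicle against 14.4% and 15.9% in PM, all far above the 1.43% to 1.70% in clonal plasma cells. In level the gene ranged less. Rps9 stood at 1690 ± 182 CPM in cycling precursors, 1657 ± 154 in immature and 1682 ± 235 in mature neutrophils. From cycling precursors to mature neutrophils it thus stayed near the same level while the summed share of the module dropped. The Il1b-high stage, where its part was highest, is not included in this comparison of levels. The gene lies at chr7:3703954-3706897 on GRCm38 and overlaps no other annotated gene.

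The other members with wide ranges differed in the types where they were highest and lowest. Rpl36al, a paralog of Rpl36a, gave 1.36% ± 0.20 in plasma cells without a dominant V gene and 0.14% ± 0.04 in mature neutrophils. Rps27l, a paralog of Rps27 that is induced by p53, ranged from 0.43% ± 0.08 in the same plasma cells to 0.055% ± 0.01 in mature B cells. Rpl12, of the stalk base, was highest in T and NK cells (1.28%), Rps18 in clonal plasma cells (1.35%), Rpl10a in small pre-B and immature B cells (0.95%), Rps20 in plasma cells without a dominant V gene (1.85%) and Rpl22l1 in CAR cells (0.38%). Their lowest values were 0.19%, 0.21%, 0.16%, 0.36% and 0.05%.

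**Figure D2:**
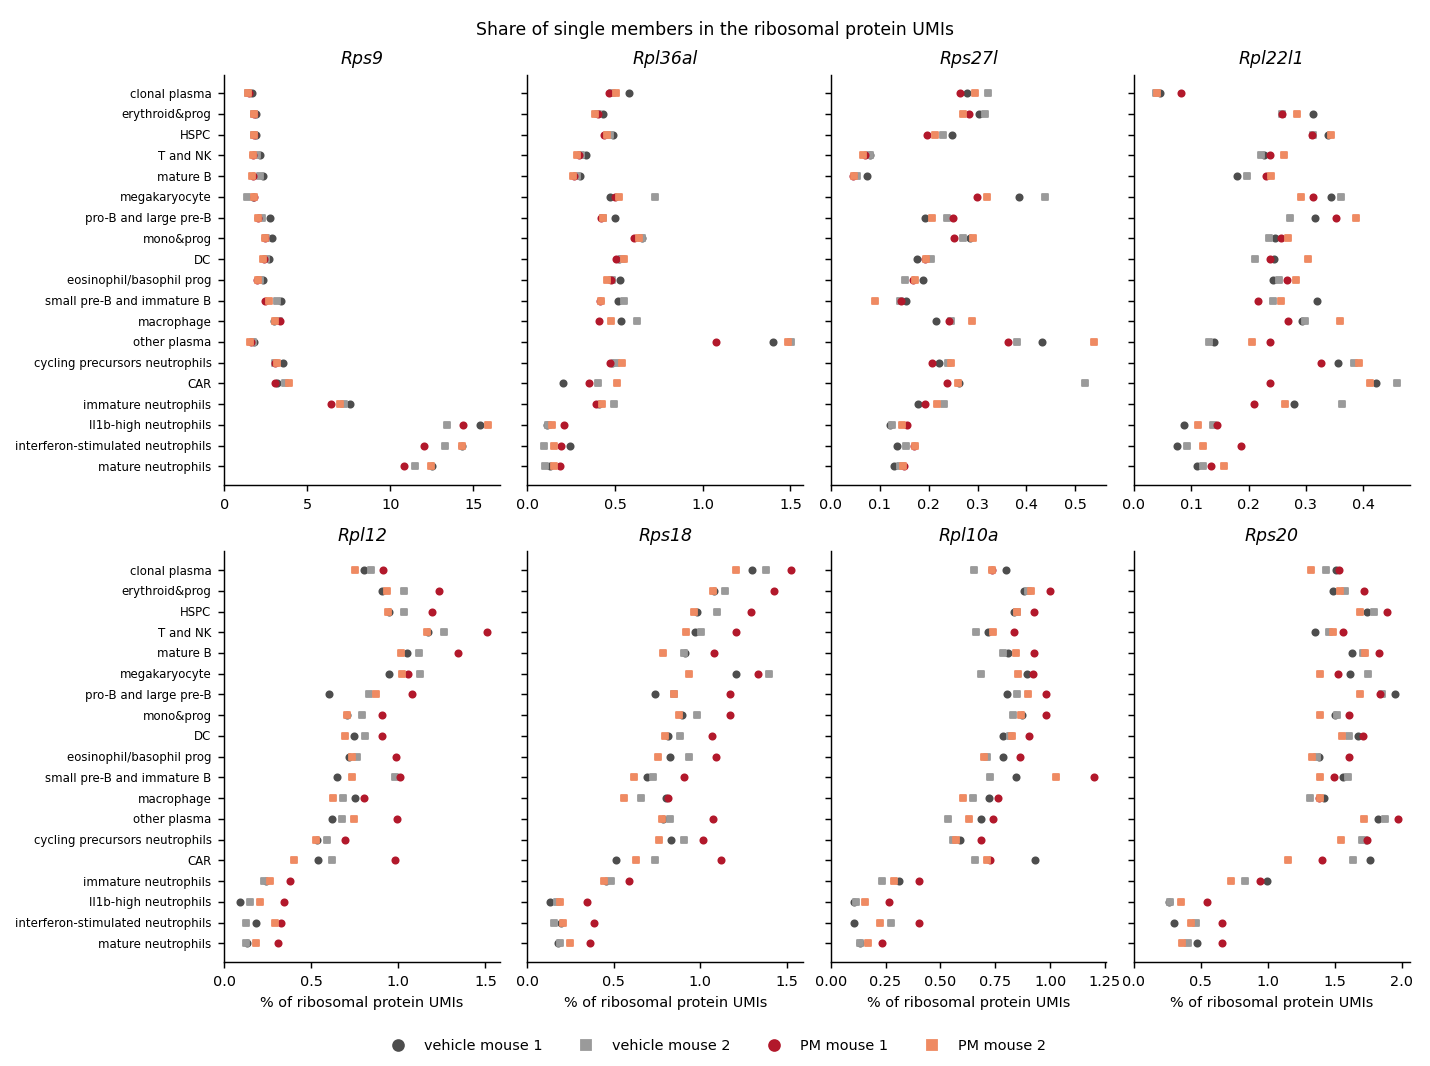
Each gene's percentage of all ribosomal protein UMIs is plotted on a linear axis for the 8 members with the widest range over types, with the 19 types on the vertical axis and 1 point per mouse in the same colors as above. Rps9 climbs from 1.52% in clonal plasma cells to 14.8% in Il1b-high neutrophils, while Rpl36al and Rpl12 are low in mature neutrophil stages.

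The paralog pairs changed balance between cell types. Rpl3l replaces Rpl3 in ribosomes of heart and skeletal muscle, and it was nearly absent from most marrow cells. Rpl3l gave 0.17% of the UMIs of the pair Rpl3 and Rpl3l in cycling neutrophil precursors and 5.61% ± 1.02 in immature neutrophils. In mature neutrophils it gave 44.5% and 26.4% in vehicle against 22.1% and 40.8% in PM, and in Il1b-high neutrophils 41.2%, 46.7%, 30.4% and 39.4%. The counts behind these shares were 415 and 204 UMIs, and the level of Rpl3l was 14.5 ± 3.40 and 24.8 ± 5.55 CPM, against 0.64 CPM in cycling precursors. Rpl3 stood at 30.4 and 39.2 CPM in these stages against 384 in cycling precursors. The rise of the share thus came from a higher level of Rpl3l and a lower level of Rpl3. In the 3 other pairs with ample counts, Rps27l gave 29.5% ± 2.27 of its pair in clonal plasma cells and 27.7% ± 4.96 in megakaryocytes, but 1.78% ± 0.46 in mature B cells and 3.44% ± 0.27 in T and NK cells, where Rps27 reached 5220 and 3692 CPM. Rpl22l1, whose protein competes with that of Rpl22, gave 5.38% ± 2.46 of its pair in clonal plasma cells and 39.2% ± 6.26 in immature neutrophils. Rpl36al gave 65.9% ± 3.12 of its pair in plasma cells without a dominant V gene and 28.6% ± 4.16 in mature B cells. Rpl7l1, a factor of ribosome assembly, gave 5.21% ± 0.47 of its pair over all cells. Rpl39l, known from male germ cells, had 147 UMIs in all, and 19 of them in 222 CAR cells, where it gave 5.06% ± 1.89 of its pair.

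**Figure D3:**
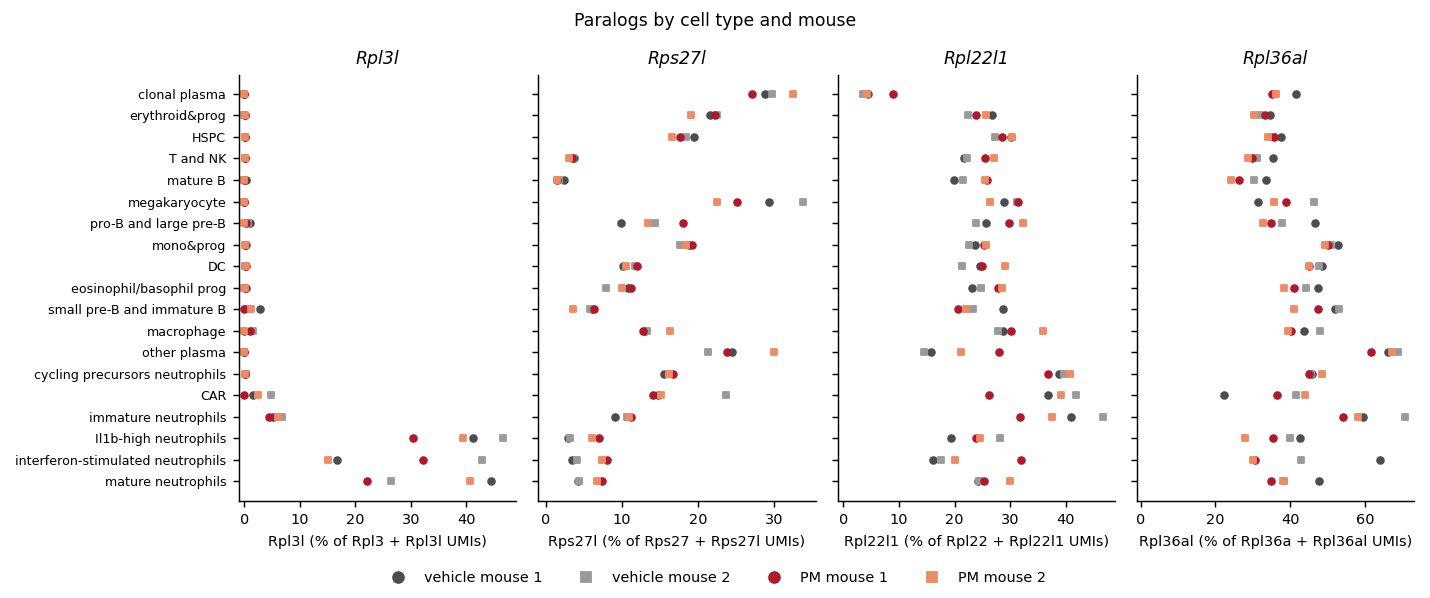
The paralog's percentage of the UMIs of its pair is plotted by cell type, with 1 panel per pair and 1 point per mouse in the same colors as above. Rpl3l lies at or below 2.18% on average outside the immature and later neutrophil stages and at 39.4% in Il1b-high neutrophils, and Rpl22l1 is at its lowest, 5.38%, in clonal plasma cells.

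The sign of the difference between PM and vehicle was not the same in all cell types, and whether types differed in it was not tested for the share. In 3 of the 19 types both PM mice were above both vehicle mice, in 4 types both were below, and in 12 types they were mixed. A comparison of 2 against 2 mice cannot give an exact two-sided permutation p below 0.33, so no test is given for the share. The mice of 1 group also differed: PM mouse 2 was below PM mouse 1 in 19 of 19 types. Each difference between the groups thus has to be read beside the gap between these PM mice, also where the groups did not overlap.

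The largest difference was in pro-B and large pre-B cells, the dividing B cell precursors. The share was 11.8% and 13.95% in vehicle, against 19.2% and 16.3% in PM, a mean of 12.9% ± 1.53 against 17.7% ± 1.99 (SD, n = 2), so PM was 4.88 percentage points higher and the groups did not overlap. In T and NK cells the share was 15.3% and 17.5% in vehicle and 19.5% and 18.8% in PM, 2.72 percentage points higher and again without overlap. The small pre-B and immature B cells had 10.1% and 9.96% in vehicle and 11.5% and 10.4% in PM, a difference of 0.90 points. Mature B cells differed by -0.05 points, with 17.7% and 16.6% in vehicle and 17.9% and 16.3% in PM. In macrophages the share was 10.9% and 7.85% in vehicle and 7.74% and 6.64% in PM, 2.16 points lower, with the upper PM value close to the lower vehicle value. The neutrophil granule list gave 7.11% and 15.2% of macrophage UMIs in vehicle and 18.7% and 14.5% in PM, and its part in the difference was not tested. Mature neutrophils had 1.52% and 1.59% in vehicle and 1.503% and 1.10% in PM, and Il1b-high neutrophils 1.68% and 1.92% in vehicle and 1.68% and 1.17% in PM, where PM mouse 1 stood near vehicle mouse 1. Interferon-stimulated neutrophils had 1.58% and 1.62% in vehicle and 1.57% and 1.19% in PM. In clonal plasma cells, which include the myeloma cells of the model, the share was 21.6% and 23.5% in vehicle and 21.98% and 19.3% in PM, and the groups overlapped.

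In pro-B and large pre-B cells 11 of the 81 tested members rose and none fell at an adjusted p under 0.05 and an absolute log2 fold change over 0.5; of all 8112 genes tested there, 2.4% rose and 2.11% fell. The fold changes of all 81 members were above 0, with a median of 0.56 on the log2 scale against 0.0026 over all genes, and in 80 members both PM mice were above both vehicle mice (no overlap, PM higher), as in 22.5% of all genes. Rpl29, of the large subunit, had 430 and 635 CPM in vehicle against 1132 and 951 in PM (log2 fold change 1.00, SE 0.23, adjusted p = 0.012, edgeR). Rps2, near the mRNA entry site of the small subunit, had 1011 and 1576 CPM in vehicle and 2967 and 1937 in PM (0.97, SE 0.24, adjusted p = 0.026). Rpl12 had 709 and 1158 CPM in vehicle and 2062 and 1425 in PM (0.94, SE 0.24, adjusted p = 0.030). The others included Rpl14 (0.92), Rps18 (0.87), Rpl22l1 (0.86), Rpl36a (0.86), Rpl32 (0.80), Rpl11 (0.79) and Rpl13 (0.76). Rpl11 binds Mdm2 together with Rpl5 when ribosome assembly is disturbed. Rpl5 itself had 1104 and 1372 CPM in vehicle and 1927 and 1477 in PM and did not pass.

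Members with known roles of their own had positive values in these cells without passing. Rps6, the substrate of S6 kinase, stood at 0.59 on the log2 scale (adjusted p = 0.11, edgeR). The stalk proteins Rplp0, Rplp1 and Rplp2 had 0.64, 0.64 and 0.29, Rps19, mutated in Diamond-Blackfan anemia, 0.49, Rpl38 0.39, Rpsa 0.47, Rps27a, which encodes ubiquitin fused to a small-subunit protein, 0.62, and Rpl41 0.45. The smallest were Rpl37a (0.17), Rps27 (0.18) and Rps9 (0.25).

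The counts in early B cells rested on few cells and on single mice. The vehicle mice gave 36 and 149 cells, the PM mice 100 and 67, and no member passed without vehicle mouse 1 or without PM mouse 1, while 23 passed without PM mouse 2. The PM cells were also deeper, with medians of 6544 and 8426 UMIs against 4029 and 5802 in vehicle; with each cell thinned to 1000 UMIs the share was 10.98% and 11.7% in vehicle and 16.7% and 14.02% in PM. The neutrophil granule list gave 0.18% and 0.13% of UMIs in vehicle and 0.34% and 0.13% in PM. The cells form 2 clusters. In the cluster led by cell cycle genes the share was 11.8% and 14.2% in vehicle and 19.6% and 16.6% in PM, and 7 members rose, where 1.85% of 7877 genes did and 1.78% fell. In the cluster with Dntt among its leading genes, with 10 to 32 cells per mouse, it was 11.6% and 11.6% in vehicle and 15.5% and 11.9% in PM, and no member passed by edgeR while 6 of 80 (7.5%) had an unadjusted p under 0.05, as 8.36% of all genes did. Some of these genes were high in 1 library in nearly every cell type. Within the module, PM mouse 1 had the highest part of Rpl13 in 19 of 19 types, of Rpl12, Rpl32 and Rps18 in 18, of Rpl11 in 16 and of Rps2 in 15. The part this had in the calls was not tested.

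Other genes of ribosome production rose in the same early B cells. Of 51 genes of ribosome biogenesis, 21 rose and none fell, and the median was 1.04 on the log2 scale. Of all 8112 genes tested in these cells 2.4% rose and 2.11% fell, which also stands beside the lists that follow. Mybbp1a, which acts on RNA polymerase I, had 40.7 and 72.1 CPM in vehicle and 195 and 184 in PM (1.61, SE 0.26, adjusted p = 0.00088, edgeR). Nop2, a methyltransferase of the large-subunit rRNA, rose by 1.54, Gnl3 (nucleostemin) by 1.42, Fbl (fibrillarin) by 1.22 and Ncl (nucleolin) by 1.18. Of 29 initiation factors 4 rose, among them Eif2s1 (1.17) and Eif1a (1.05), and of 23 elongation factors and other TOP mRNAs Npm1 alone rose, with 935 and 1289 CPM in vehicle and 2449 and 2592 in PM (1.23). Of 15 tested regulators Myc, a driver of ribosome biogenesis, rose from 17.4 and 73.1 CPM to 176 and 146 (1.48, SE 0.31, adjusted p = 0.0087, edgeR), and Larp1 by 1.11. Of 78 mitochondrial ribosomal proteins 1 rose, Mrps25 (1.17), and their median was 0.36. Among the ribosomal proteins outside the rule, Rack1 had 0.53 and Fau -0.01, neither past the threshold. These calls rest on the same few cells as those of the members. Vehicle mouse 1 gave the fewest of them, so its low values stand for few UMIs: Wdr75 had 5.81 CPM there and Rrp12 0.0, and both genes passed as higher in PM.

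In small pre-B and immature B cells 1 of 81 members rose and none fell (1.14% of 3506 genes rose). This was Rpl10a, with 849 and 721 CPM in vehicle and 1377 and 1065 in PM (0.75, SE 0.19, adjusted p = 0.048, edgeR). It did not pass with DESeq2 (adjusted p = 0.38), nor without PM mouse 1 or without vehicle mouse 2, and 70 of the 81 members were above 0 with a median of 0.22, while 30 did not overlap with PM higher (16.7% of all genes) and 10 with PM lower (26.6%). Rpl10a was also highest, within the module, in PM mouse 1 in 17 of 19 types. In mature B cells no member passed with edgeR (1.06% of 7661 genes rose and 0.666% fell), 8 members (9.88%) had an unadjusted p under 0.05, as 12.2% of all genes did, and the largest difference that held in each pair of mice was Rps9, with 4118 and 3627 CPM in vehicle and 3103 and 2738 in PM (-0.41, adjusted p = 0.10).

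**Figure D4:**
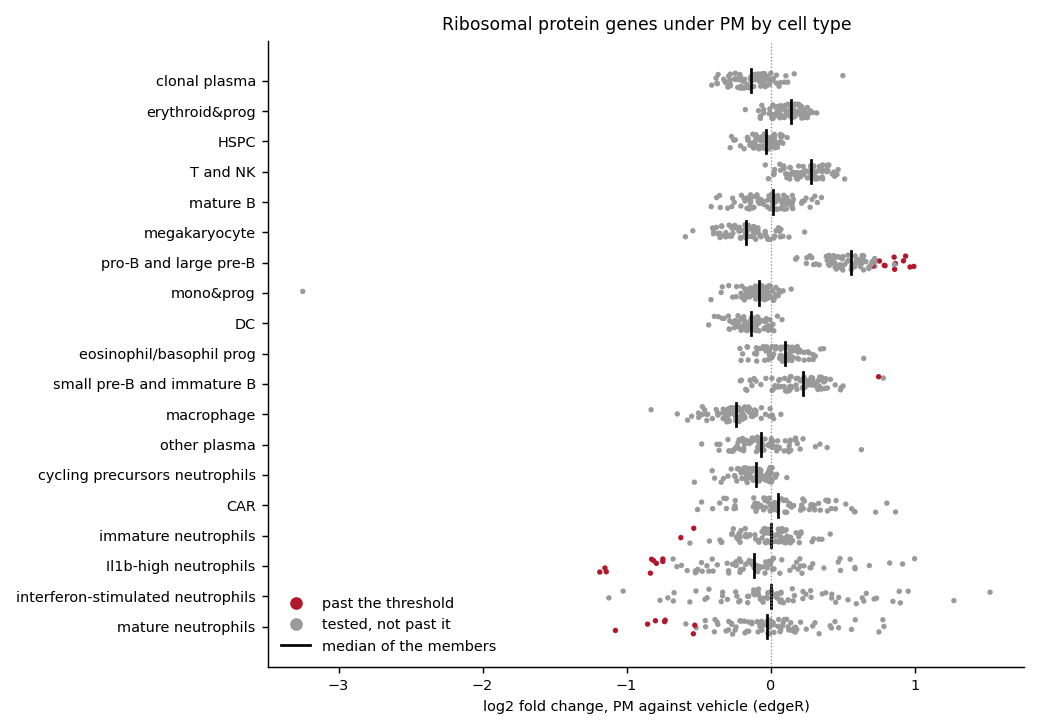
The log2 fold change of PM against vehicle is plotted for every tested member (1 point each) in 19 cell types, with members past the threshold in red, the others in grey and a black tick at the members' median. In pro-B and large pre-B cells all points lie above 0 with 11 in red, in T and NK cells 79 of 81 lie above 0 with none in red, and in mature and Il1b-high neutrophils 7 and 9 red points lie below 0; the lowest point, in monocytes and their progenitors, is Rpl39l at about 1 CPM.

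In T and NK cells no member passed with edgeR, where 0.436% of 9863 genes rose and 0.629% fell; 79 of 81 members had positive values with a median of 0.28, 32 (39.5%) had an unadjusted p under 0.05, as 13.03% of all genes did, and 52 did not overlap with PM higher (20.4% of all genes). The largest was Rpl5, with 1507 and 1950 CPM in vehicle and 2434 and 2415 in PM (0.51, SE 0.15, adjusted p = 0.11). The genes of ribosome biogenesis had positive values in 45 of 51 and none passed. The make-up of these cells differed between the groups. Sub-cluster 1, led by Igfbp4 and Ccr7, and sub-cluster 4, with Cd8b1 among its leading genes, together held 1.55% and 9.62% of the cells in vehicle and 28.2% and 25.5% in PM, and their shares were 23.6% to 28.1%, above those of the other sub-clusters. With equal weight for the 6 sub-clusters of at least 10 cells in every mouse, which leaves these out, the share was 14.8% and 16.2% in vehicle and 17.5% and 15.8% in PM, a difference of 1.17 points with overlap. No member passed within any of the 6, and their medians were 0.06 to 0.31. Cells of the sub-cluster led by neutrophil genes, of which 46.7% to 85.5% were called doublets, were 1 of these 6, and the neutrophil granule list gave 2.58% to 5.45% of all UMIs of T and NK cells.

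In neutrophils the members that passed were lower in PM. Immature neutrophils had 2 members that fell and none that rose among 82 tested (5.25% of 10521 genes rose and 1.4% fell): Rps29, from 684 and 701 CPM to 510 and 478 (-0.62, SE 0.14, adjusted p = 0.017, edgeR), and Rpl22l1 (-0.53). There 10 members did not overlap with PM higher, beside 41.0% of all genes, and 8 with PM lower, beside 10.7%. In mature neutrophils 7 of 82 fell and none rose (4.7% of 8808 genes rose and 2.26% fell). Rps27a had 1015 and 1208 CPM in vehicle and 609 and 422 in PM (-1.08, SE 0.21, adjusted p = 0.021). Rps27 had 448 and 490 CPM in vehicle and 281 and 229 in PM (-0.85, SE 0.16, adjusted p = 0.015), and Rps29 389.5 and 456.5 against 253 and 224 (-0.80, adjusted p = 0.015). Rpl23a, at the exit of the peptide tunnel (-0.74), Rpl41, the shortest member (-0.73), Rpl37a (-0.54) and Rps21 (-0.53) fell as well. In each of these genes both PM mice were below both vehicle mice, as for 22 of the 82 members and 27.8% of all genes.

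In Il1b-high neutrophils 9 of 82 members fell and none rose (3.9% of 6930 genes rose and 1.89% fell). Rps27 had 677 and 742 CPM in vehicle and 343 and 262 in PM (-1.19, SE 0.18, adjusted p = 0.0049, edgeR), and Rps27a 1042 and 1253 against 618 and 389 (-1.14, SE 0.21, adjusted p = 0.013). Among the others, Rps29 fell by 0.83, Rpl41 by 0.83, Rps25 by 0.79, Rps13 by 0.75 and Rps21 by 0.75 on the log2 scale. Rpl7l1 fell by 1.15 at a low level, from 25.3 and 23.1 CPM in vehicle to 8.49 and 12.5 in PM (adjusted p = 0.0499, edgeR). Both stages come from the same 4 mice. In interferon-stimulated neutrophils no member passed (0.0% of 3922 genes fell), 14 of 79 (17.7%) had an unadjusted p under 0.05, as 12.6% of all genes did, 17 did not overlap with PM lower (24.6% of all genes), and Rps27a had 1078 and 1042 CPM in vehicle and 533 and 399 in PM (-1.12, adjusted p = 0.052). In cycling precursors no member passed (2.08% of 10527 genes rose and 0.266% fell), and 71 of 81 had negative values. There 17 of the 81 did not overlap with PM lower (10.9% of all genes) and 1 with PM higher (30%). An unadjusted p under 0.05 was found in 3 (3.70%), as in 16.2% of all genes, and Rps29 had -0.53 (adjusted p = 0.10).

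In mature and Il1b-high neutrophils the falls did not extend over the whole module. A cluster without a name, led by Igfbp6, Ptgs2 and Il1b, had 65 of 81 members with negative values and a median of -0.32. There 47 did not overlap with PM lower (31.8% of all genes). In it 4 members fell and none rose (0.809% of 4078 genes rose and 0.392% fell). In neutrophils without a stage, led by Thbs1 and Cmpk2, Rps29 alone fell (-0.74), beside 0.373% of 5893 genes. The median of the 82 members was -0.02 in the mature and -0.12 in the Il1b-high neutrophils, and 35 and 28 members had positive values there. Rpl36a had 21.5 and 25.7 CPM in vehicle and 51.7 and 27.0 in PM in mature neutrophils (0.79, adjusted p = 0.21), and 24.5 and 33.8 against 63.7 and 42.5 in Il1b-high neutrophils (0.92, adjusted p = 0.054). Rps27a and Rps27 in mature neutrophils and Rps27 in Il1b-high neutrophils passed with any 1 mouse left out; Rps27a in Il1b-high neutrophils (adjusted p = 0.053) and Rps29 in mature (0.053) and Il1b-high neutrophils (0.15) missed without PM mouse 2. The counts moved more: without PM mouse 2, 2 members fell and 6 rose in mature neutrophils and 1 fell and 5 rose in Il1b-high neutrophils, and without PM mouse 1, 16 and 14 fell. In immature neutrophils Rps29 missed without vehicle mouse 1, without vehicle mouse 2 or without PM mouse 2. Rps29 and Rps21 were also highest within the module in vehicle mouse 2 in 17 of 19 types, while Rps27 was highest in PM mouse 2 in 8 types and Rps27a in vehicle mouse 2 in 10; the part this had in the calls was not tested. PM neutrophils had fewer UMIs, with medians of 3204 and 3812 against 4458 and 4176 in mature neutrophils. Rps27a lies at chr11:29545842-29548040 on GRCm38 and overlaps Clhc1 by 90 bases.

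**Figure D5:**
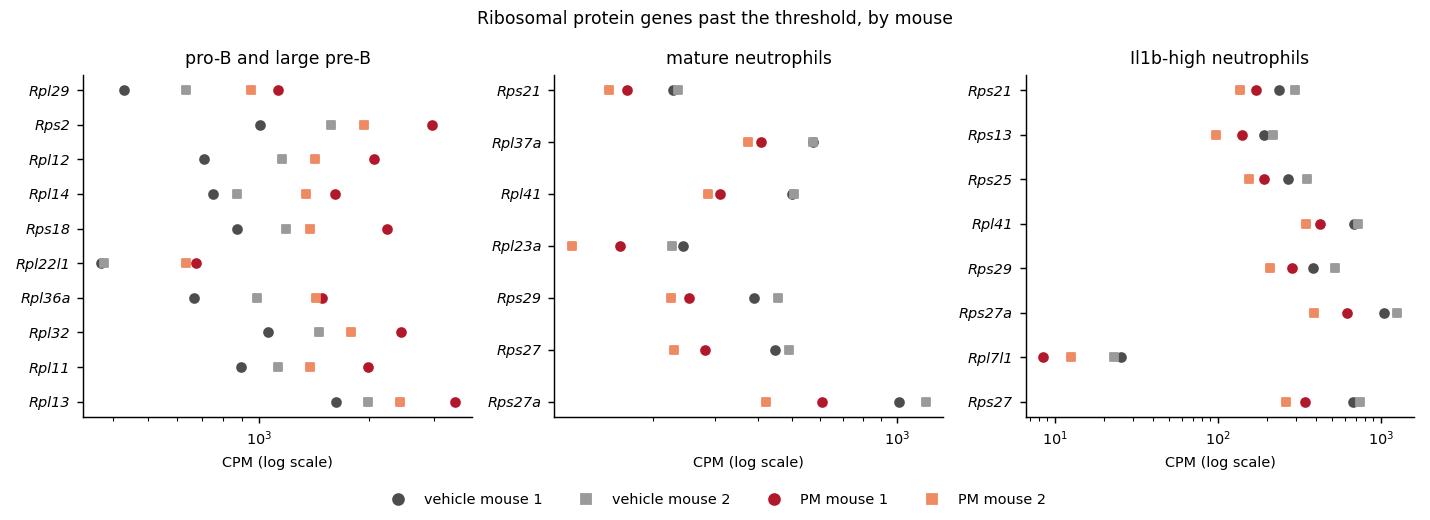
The CPM of members that passed the test, other than those not reported here, is plotted per mouse, with the gene on the vertical axis, a log axis of CPM and 1 panel per cell type. In pro-B and large pre-B cells the 2 PM points of each gene lie to the right of the vehicle points, and in mature and Il1b-high neutrophils they lie to the left, as for Rps27 at 343 and 262 against 677 and 742 CPM in Il1b-high neutrophils.

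Some other translation genes passed in neutrophils. The genes named here come from lists of 23 elongation factors and other TOP mRNAs, 29 initiation factors and 78 mitochondrial ribosomal proteins. Of all genes, 5.25% rose and 1.4% fell in immature, 4.7% and 2.26% in mature, and 3.9% and 1.89% in Il1b-high neutrophils. In immature neutrophils the mitochondrial ribosomal protein genes Mrpl57 and Mrpl23 passed, at -0.62 and 0.59. In mature neutrophils Pabpc1, the poly(A) binding protein, had 437 and 396 CPM in vehicle and 240 and 264 in PM (-0.71, SE 0.13, adjusted p = 0.016, edgeR), and Eif4ebp1, which holds back cap-dependent initiation, fell by 0.71. Of the mitochondrial ribosomal proteins Mrpl24 fell by 0.99, and Mrpl23 rose by 0.74, and by 1.31 in Il1b-high neutrophils. In the latter Eif3k fell by 0.83 and Btf3 by 0.70. No gene of ribosome biogenesis passed in mature or Il1b-high neutrophils. The 51 genes of that list together had only 367 and 410 CPM there (mean of the mice), against 5726 in pro-B and large pre-B cells.

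The remaining 10 types had no member past the threshold with edgeR, beside shares of all genes between 0.0% and 1.29% that rose and between 0.0% and 0.577% that fell. In macrophages 78 of 81 members had negative values with a median of -0.24 and 36 did not overlap with PM lower (22.3% of all genes); 2 had an unadjusted p under 0.05 (2.47%, beside 5.73% of all genes), and the largest held by each pair of mice was Rpl35, with 553 and 488 CPM in vehicle and 297 and 242 in PM (-0.83, adjusted p = 0.78). In monocytes and their progenitors 73 of 83 were negative with a median of -0.08. There 1 did not overlap with PM higher (26.7% of all genes) and 15 with PM lower (16.2%). In dendritic cells, where 0.388% of all genes rose and 0.0498% fell, 75 of 81 were negative with a median of -0.14, 31 did not overlap with PM lower (18.3% of all genes) and none with PM higher (20.1%), and in HSPC 57 of 82 with a median of -0.03. In clonal plasma cells 69 of 81 were negative with a median of -0.14, and 25 did not overlap with PM lower (15.3% of all genes) and none with PM higher (20.6%). No member had an unadjusted p under 0.05 there, beside 8.61% of all genes. Rpl35 had 1585 and 2197 CPM in vehicle and 1542 and 1373 in PM (-0.41, adjusted p = 0.67). In erythroid cells and their progenitors, with a share of 16.3% and 20.3% in vehicle and 22.6% and 18.9% in PM, 70 of 81 were positive with a median of 0.14 and none had an unadjusted p under 0.05, beside 13.9% of all genes. The hemoglobin-led erythroid cluster, of 23 to 53 cells per mouse, had 9 falls among 80 tested members, beside falls in 13.4% of 2157 genes. Its Rps29 had 953 and 1337 CPM in vehicle and 427 and 494 in PM (-1.36, SE 0.25, adjusted p = 0.00036, edgeR). The neutrophil granule list gave 17.0% and 13.4% of this cluster's UMIs in vehicle and 30.1% and 28.3% in PM, and the erythroid list 30.2% and 33.3% against 20.7% and 19.1%; their part in the falls was not tested. In the other 4 types, megakaryocytes had negative values in 70 of 81 members and plasma cells without a dominant V gene in 50 of 81, while eosinophil and basophil progenitors had positive values in 60 of 81 and CAR cells in 50 of 81.

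Short members had lower median fold changes than long ones in each of the types given here. Across members, the Spearman correlation of the log2 fold change with coding length was 0.55 in cycling neutrophil precursors, 0.42 in pro-B and large pre-B cells, 0.44 in T and NK cells, 0.31 in mature neutrophils and 0.004 in macrophages. Genes are not independent replicates, the types share their libraries, and no test is given. In mature neutrophils the 28 members with under 400 coding bases had a median of -0.14 and the 54 longer ones 0.007, while 501 other short genes had 0.03. In pro-B and large pre-B cells the medians were 0.43 and 0.62, with 0.11 for 470 other short genes. Other long genes had -0.0004 in mature neutrophils and -0.0098 in pro-B and large pre-B cells, below the other short genes. Macrophages had the same order, with 0.015 for other short and -0.005 for other long genes. The order was the opposite in cycling precursors (-0.038 for other short and -0.006 for other long genes) and in T and NK cells (-0.065 and 0.006).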

How the data were processed

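Single-cell 3' RNA-sequencing counts of 4 mouse marrow libraries were analysed, 1 per mouse, with 2 vehicle and 2 PM mice grouped by GEO's labels. The deposited values are raw UMI counts per gene and cell, which the authors made with Cell Ranger and STAR; the submitters' processing notes name GRCm39 and the study's methods GRCm38, so coordinates are given only for sequences and genes read from GRCm38 reference tables. Cells were kept from 300 detected genes upward and up to 20% mitochondrial UMIs, scaled without the 84 members, and clustered in scanpy 1.11.5 (2500 variable genes, 30 components, 15 neighbours, Leiden resolution 1). Clusters were named from marker lists. Doublets were called with Scrublet using a threshold set from the score distribution and kept in the main analysis. Counts were summed per mouse and type (at least 10 cells per mouse) and tested with edgeR 4.0.16 in R 4.3.3 (quasi-likelihood, filterByExpr, TMM, Benjamini-Hochberg over all genes of a type). A gene was called at an adjusted p under 0.05 and an absolute log2 fold change over 0.5. DESeq2 1.42.0, other scalings and filters, a replicate block and leaving out each mouse were alternatives. The test was checked on simulated counts, in which genes varied independently with the same set spread. Those counts held no shift shared by the members in a library, so the check does not cover such shifts. Named members were those called, the largest differences held in every pair of mice, and members with known roles. The members and lists were chosen with earlier results of these data known. Counting error is small beside the spread between mice for summed types but not for the rare types. Some genes that enter the counts are not reported here by name.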

Additional observations from a re-analysis of the deposited data

Results flagged for a closer look

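The difference between PM and vehicle was compared between B cells (all stages) and neutrophils (all stages) in 1 edgeR fit with the mouse as a block. Both groups include the cells without a stage, among them a B sub-cluster of 70 cells of which 52.9% were called doublets. Of 82 members 4 had a higher and 1 a lower log2 fold change in B cells, where 0.97% and 3.43% of all genes did. Rps27a differed by 0.79 (adjusted p = 0.0030), with own values of 0.19 in B cells and -0.59 in neutrophils. Rpl22l1 differed by 0.69 (adjusted p = 0.0078; 0.37 and -0.32), Rps29 by 0.68 (adjusted p = 0.013; 0.07 and -0.62) and Rps27 by 0.66 (adjusted p = 0.019; 0.22 and -0.44). Rpl3l differed by -2.16 (adjusted p = 0.018), from few counts in B cells, with 6.89 and 5.37 CPM in vehicle and 1.22 and 1.13 in PM.

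Between T and NK cells and neutrophils 2 of 83 members differed, both higher in T and NK cells, where 0.451% of all genes did: Rps27a by 0.83 (adjusted p = 0.029) and Rpl22l1 by 0.70 (adjusted p = 0.012). Between monocytes and neutrophils no member of 83 passed with edgeR, where 1.13% of all genes were higher and 3.66% lower, and 5 members had an unadjusted p under 0.05. The make-up of B cell stages and of T cell sub-clusters differed between the groups, and its part in these differences was not tested.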

How the results depend on the processing

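Counts of members called were sensitive to single mice. With 1 mouse left out, the remaining mouse of its group was assumed to vary like the other group, and the counts ranged from 0 to 12 lower in cycling precursors, 0 to 4 higher and 0 to 3 lower in immature, 0 to 6 higher and 2 to 16 lower in mature, 0 to 5 higher and 1 to 14 lower in Il1b-high and 0 to 1 higher and 0 to 3 lower in interferon-stimulated neutrophils. They ranged from 0 to 23 higher in pro-B and large pre-B, 0 to 3 higher in small pre-B and immature B, 0 to 1 lower in mature B, 0 to 1 lower in monocytes, 0 to 3 higher in eosinophil and basophil progenitors and 0 to 1 higher in clonal plasma cells. The value of Rpl13 in immature neutrophils ranged from -0.081 to 0.69 and that of Rpsa in HSPC from -0.058 to 0.20, each reversed without PM mouse 1. DESeq2 gave 1 lower in cycling precursors, 5 lower in Il1b-high, 1 lower in interferon-stimulated neutrophils and 0 higher in small pre-B. Library size alone gave 0 lower in immature and 2 lower in interferon-stimulated neutrophils, 0 higher in small pre-B and 1 lower in monocytes. Without a filter there were 1 lower in cycling precursors, 4 higher in mature, 3 higher and 14 lower in Il1b-high and 2 lower in interferon-stimulated neutrophils, 1 lower in monocytes and in erythroid cells, and 1 higher in T and NK cells. Without doublets there were 1 higher in Il1b-high and 2 lower in interferon-stimulated neutrophils. With 500 genes and 10% mitochondrial UMIs, 2 were lower in interferon-stimulated neutrophils and 2 higher in small pre-B, and clustering with the members gave 2 and 2, and 4 lower in mature neutrophils. The cycling pro-B cluster alone, chosen after seeing the data, had 7 higher. The cause of these changes was not tested.

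Same-numbered mice share only a number: the correlation of their deviations had a median of -0.049 over 19 types. The replicate block gave 1 higher in Il1b-high neutrophils, 2 higher in small pre-B and 1 lower in monocytes; in pro-B and large pre-B it gave 8 higher and in mature neutrophils 5 lower.

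The share difference was 1.17 points in T and NK cells with equal weight of sub-clusters, also chosen after seeing the data. In eosinophil and basophil progenitors and in other plasma cells the share difference was positive in the main analysis. With 1 mouse left out it ranged from -0.60 to 1.84 and from -0.41 to 1.31. As a mean over cells it was -0.79 and -1.46, and thinned to 1000 UMIs -0.72 and -1.50, so both settings reversed its sign. With immunoglobulin, hemoglobin, mitochondrial and granule genes out of the total, the share was 8.50% in cycling precursors, 4.12% in immature, 2.28% in mature, 2.21% in Il1b-high and 2.18% in interferon-stimulated neutrophils, 11.4% in small pre-B, 18.6% in mature B, 19.6% in T and NK, 20.7% in HSPC, 12.8% in eosinophil and basophil progenitors, 6.69% in CAR, 15.3% in other plasma and 24.5% in clonal plasma cells. Thinned, it was 16.5% in erythroid cells.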
